A study of Homo sapiens with 5 samples.

Results

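The levels of 10 genes beside PLAU on chromosome 10 were followed in 5 RNA libraries. PLAU encodes the urokinase plasminogen activator (uPA), a secreted protease, and its promoter was the target of all guide RNAs (gRNAs) used. The neighbours were CAMK2G, C10orf55, VCL, NDST2, AP3M1, ADK, SEC24C, FUT11, CHCHD1 and PPP3CB. They were taken by gene symbol, and all 10 had reads in all 5 libraries, out of 19716 genes with a read in at least 1 library. The question was whether the level of genes around the guide target differed from the control along with PLAU.

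All libraries came from HEK293T, a line derived from human embryonic kidney expressing the SV40 large T antigen. In 4 groups the cells received 5 uPA gRNAs together with a dCas9-BFP fusion, whose last part was DNMT1 in the first group, DNMT3A in the next, DNMT3B in another and EGFP in the last (dCas9-BFP-DNMT1 and so on). The fifth group received pUC19, a plasmid that carries neither dCas9 nor a gRNA, which served as the control. RNA was collected 48 h after a transient transfection with 1 ug of plasmid, and the labels give sorting for BFP in each group, although pUC19 encodes no BFP. Each group had 1 library, so no difference given here has a replicate check, and p-values from read counts compare libraries, not conditions. No group received a fusion without gRNAs, so the presence of dCas9 and that of the gRNAs cannot be told apart.

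dCas9 is a Cas9 that binds DNA where its gRNA matches but does not cut it. DNMT3A and DNMT3B are enzymes that set new DNA methylation, DNMT1 copies methylation after replication, and EGFP has no methyltransferase activity. The fusions carried only the catalytic domains of the methyltransferases. The paper reports no significant rise of methylation at the uPA promoter with its DNMT1 or EGFP fusion. A protein held at a promoter can lower transcription by blocking RNA polymerase, and DNA methylation or repressive chromatin can extend along a chromosome from where it is set. Genes near a targeted promoter are therefore a usual place to look for effects beyond the target.

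The target sites of the 5 uPA gRNAs were found on GRCh37, the build of the files, and are shown because they fix the point from which distance was counted. Capitals mark the 5 bases of the guide next to the PAM and the GG of the PAM.
uPA-T1: gtgagcgttgcggaaGCACGcGG
uPA-T2: gagccgggcgggagaGGGAGgGG
uPA-T5: gggacaggtggacccTGGCCcGG
uPA-T4: gcccggggatctcagGACCGcGG
uPA-T3: gagtcaaggcgccccGTCCCgGG

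T1 (chr10:75670761-75670780, plus strand) and T2 (chr10:75670819-75670838, plus strand) lay upstream of the start of the canonical PLAU transcript at 75670890, with their nearest ends at -110 and -52 bp. The annotated PLAU gene as a whole begins at 75668935, so T1 and T2 also lay inside it. T5 (chr10:75670920-75670939, minus strand) lay in exon 1 of PLAU, at 30 bp. T4 (chr10:75670987-75671006, minus strand) and T3 (chr10:75671093-75671112, plus strand) lay in a PLAU intron, at 97 and 203 bp. All 5 sites also lay in exon 5 of C10orf55, a lncRNA gene that is read from the opposite strand across PLAU. Each guide had 1 exact match with an NGG PAM on chromosome 10.

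On the left of PLAU, the start sites of CAMK2G, NDST2, CHCHD1, FUT11, SEC24C and PPP3CB were 36.6, 99.5, 129.1, 138.9, 166.8 and 415.1 kb away. On the right, those of C10orf55, VCL, AP3M1 and ADK were 11.6, 87.0, 239.7 and 240.1 kb away. AP3M1 and ADK start next to each other and point in opposite directions. The annotated ends of VCL and AP3M1 overlap on opposite strands, so reads there cannot be assigned to either gene without strand. The nearest neighbouring promoter of a protein-coding gene was thus that of CAMK2G.

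No second site for any of the 5 guides was found within 1 Mb of PLAU when up to 4 mismatches and an NGG PAM were allowed. The guide-like sites with the fewest mismatches within 1000 bp of a neighbour's start site were those at CAMK2G and PPP3CB, with 5 mismatches to T2 each, followed by FUT11 with 6. Over the 758 start sites of genes with reads on chromosome 10, PLAU left out, the median was 7 mismatches, and 10.3% had 5 or fewer. The sites at these 3 genes are given below, with capitals at the bases that differ from T2 and the PAM as the last 3 bases.
CAMK2G (chr10:75634018-75634037, plus strand): gCgGcgggcgggaAaggCGgggg
PPP3CB (chr10:75255675-75255694, plus strand): gGgccgggcgggGTTgggGgcgg
FUT11 (chr10:75532183-75532202, plus strand): AGgccggCGgggagGCggagtgg

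A match of the last 5 guide bases and NGG, without regard to the rest, was looked for on both strands in RefSeq promoter windows of 300 bases from the GRCh38.p14 table, most of each window lying before the start site. The table held 9 windows for 7 of the neighbours. The T2 motif GGGAGNGG was present in 4 of the 9 windows, at CAMK2G, NDST2 and VCL, and in 25.7% of all 35116 windows. The T5 motif TGGCCNGG was present in 3 of the 9, at CAMK2G, CHCHD1 and SEC24C (10.5% of all windows). The T1 motif GCACGNGG was present in 1, at ADK (4.57%). None of the 9 windows held the T3 motif GTCCCNGG (9.74%) or the T4 motif GACCGNGG (4.59%). FUT11, C10orf55 and PPP3CB had no window in the table. CpG, the dinucleotide that DNA methyltransferases modify, occurred between 13 times (1 of the ADK windows) and 48 times (1 of the NDST2 windows) per window, against a median of 14 over all windows. The CAMK2G window held 37 and the CpG-richer of the PLAU windows 28. The neighbouring promoters thus mostly held as many CpGs as other promoters or more.

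The fusion libraries held 26.2 to 29.4 M reads assigned to genes and the pUC19 library 36.1 M (M, 1e6 reads). The HEK293T markers PAX2, LHX1, NEFM, NEFL and INA were each at 1 TPM (a length-normalized per-million transcript level) or more in all 5 libraries, but not at even levels. NEFM was at 193.0 TPM in pUC19 and 34.3 to 60.2 TPM in the fusion libraries, NEFL at 90.7 and 28.9 to 35.6 TPM, and INA at 39.0 and 55.4 to 85.4 TPM, and the part of this in the results was not tested. Of 5 markers of other cells (PTPRC, ALB, COL1A1, COL3A1 and PECAM1), 1 reached 1 TPM in all 5, and their summed level was between 5.17 and 9.72 TPM. That marker was COL1A1, at 3.87 to 7.97 TPM. PAX2 and LHX1 were in a similar range, at 6.08 to 7.72 and 3.38 to 5.25 TPM. The row of each methyltransferase held between 3.19% and 5.98% of all reads in the library of its fusion and at most 0.042% in the others. PLAU had 106 reads in pUC19 and 6, 6, 1 and 4 reads with the fusions of DNMT1, DNMT3A, DNMT3B and EGFP, so its level was between 0.0134 and 0.0729 times that of the control.

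None of the 10 neighbours was called in any fusion library against pUC19. C10orf55, with 6 reads in pUC19, had too few reads to be called lower. A gene was called where the exact conditional binomial test gave an adjusted p-value no higher than 0.001 and TPM + 0.1 differed at least 2-fold. Of all genes tested, 5.29% were called with the DNMT1 fusion, 9.45% with the DNMT3A fusion, 8.89% with the DNMT3B fusion and 5.77% with the EGFP fusion. With a minimum fold change of 1.5 a single neighbour was called, PPP3CB with the DNMT1 fusion. Its log2 fold change there, -0.63 on the TPM scale, was -0.50 with TMM scaling and -0.36 after the GC and length correction, both under 1.5-fold. That rule called 15.3% of all genes there, and 22.6%, 22.0% and 16.3% with the DNMT3A, DNMT3B and EGFP fusions.

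The counts were nevertheless high enough to bound the differences. For 9 of the neighbours, C10orf55 left out, the TPM ratio to pUC19 was between 0.644 and 1.48 over the 4 fusion libraries. The lowest bound of their 36 intervals (95%, exact, counting error only) was 0.592 and the highest 1.55, so none reached a 2-fold difference. The PLAU ratio had a highest upper bound of 0.164. Small shifts between single libraries were common, and 25 of the 36 intervals did not hold 1. That share was not computed over all genes, and the 36 intervals use the same pUC19 library. The count is therefore not read as particular to the neighbours. These intervals belong to the TPM ratio, whereas the exact test compares shares of reads, so they can differ for small shifts.

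**Figure D1:**
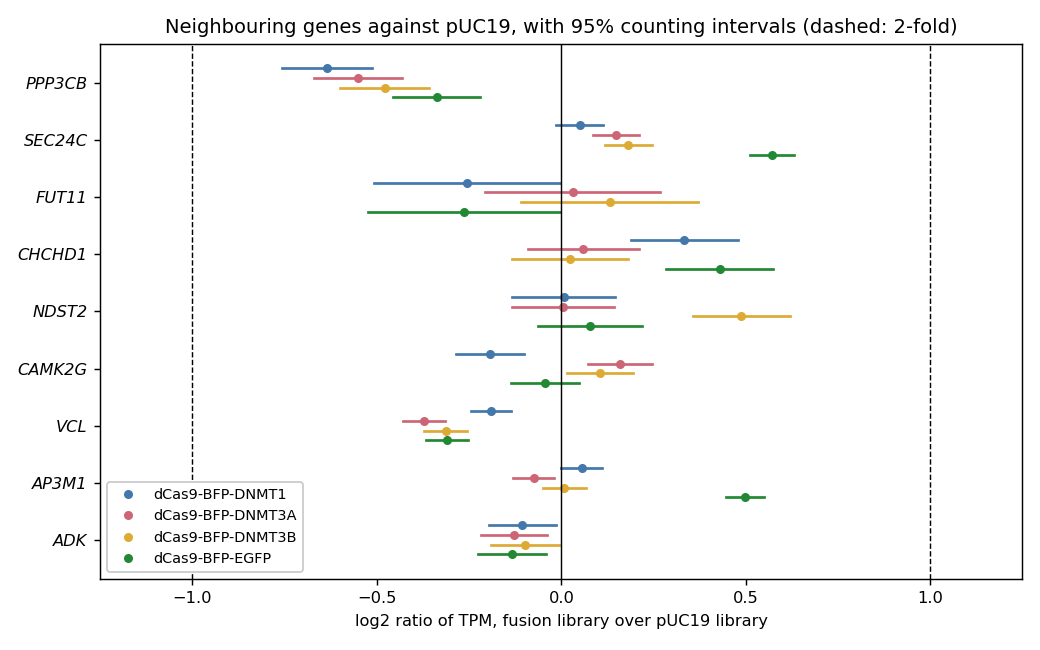
log2 ratio of TPM of each fusion library over pUC19 (x axis) for the 9 neighbours other than C10orf55, ordered from left to right along the chromosome. Points are ratios, lines are 95% exact counting intervals from 1 library per group, and all lie inside the dashed lines at 2-fold, between ratios of 0.592 and 1.55.

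In the pUC19 library the neighbours ranged from 0.150 TPM (C10orf55) and 10.1 TPM (FUT11) to 74.2 TPM (VCL). FUT11 stood at the 50.3rd and VCL at the 86.5th percentile of the genes with reads there, and C10orf55 at the 9.80th. All neighbours except C10orf55 were thus at a higher level than PLAU, which stood at 2.48 TPM in the control. In a bulk library, fewer cells that express a gene and less RNA per cell cannot be told apart.

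C10orf55 is the neighbour that shares the targeted interval. It is annotated as a lncRNA on the minus strand (chr10:75669727-75682535) with 5 exons, and 36.4% of its exon bases lie in PLAU exons. It had 6 reads in pUC19, 1 with the DNMT1 fusion, 2 with DNMT3A and 4 each with DNMT3B and EGFP. Reads covered between 1.39% and 10.3% of its length. The ratio to pUC19 was 0.215 (95% exact interval 0.00467 to 1.77) with the DNMT1 fusion, 0.417 (0.0412 to 2.33) with the DNMT3A fusion, 0.944 (0.196 to 3.98) with the DNMT3B fusion and 0.941 (0.195 to 3.97) with the EGFP fusion. A lower level could not have been called at this depth. For a higher level, the intervals, which cover counting error only, reached at most 3.98 times the control. The counting was not stated to use strand, so reads of C10orf55 and PLAU in their shared exons cannot be told apart.

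CAMK2G and PPP3CB encode calcium-signalling enzymes: the gamma chain of calcium/calmodulin-dependent protein kinase II, and a catalytic subunit of the phosphatase calcineurin. CAMK2G, the nearest protein-coding neighbour, was at 33.5 TPM with the DNMT1 fusion, 42.8 with DNMT3A, 41.3 with DNMT3B, 37.2 with EGFP and 38.3 in pUC19. The control lay inside the range of the fusions, below DNMT3A and DNMT3B and above DNMT1 and EGFP. The ratio to pUC19 was 0.875 (95% interval 0.820 to 0.933) with the DNMT1 fusion and 1.12 (1.05 to 1.18) with the DNMT3A fusion. The value for the DNMT3B fusion was 1.08 on the TPM scale and turned below the control after correction for GC content and length (log2 -0.06).

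PPP3CB, the farthest neighbour, was at 20.98, 22.2, 23.4 and 25.8 TPM with the DNMT1, DNMT3A, DNMT3B and EGFP fusions and at 32.6 TPM in pUC19. All 4 fusion libraries were below the control, and their intervals ended below the control's, which began at 31.0 TPM. The ratios were 0.644 (95% interval 0.592 to 0.701), 0.683 (0.629 to 0.741), 0.717 (0.659 to 0.780) and 0.791 (0.729 to 0.858) in that order. Its ratios were the lowest of the 9 neighbours other than C10orf55, yet 21.6% of genes of at least 1 TPM had as large a log2 fold change with the DNMT1 fusion and 49.7% with the EGFP fusion. After correction for GC content and length its log2 fold changes were between -0.42 and -0.30. In edgeR's quasi-likelihood test of the 4 fusions against pUC19, its log2 fold change was -0.45 (SE 0.20, adjusted p = 0.279).

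SEC24C and AP3M1 serve vesicle traffic, SEC24C as a cargo-binding part of the COPII coat that leaves the endoplasmic reticulum and AP3M1 as the mu chain of the adaptor complex AP-3. SEC24C was at 63.9, 68.4, 70.0 and 91.6 TPM with the DNMT1, DNMT3A, DNMT3B and EGFP fusions and at 61.7 TPM in pUC19. AP3M1 was at 72.5, 66.3, 70.2 and 98.6 TPM in the same order and at 69.8 TPM in pUC19. For both genes the EGFP fusion library stood apart on the TPM scale from the other 4, which were close to each other. Its ratio to pUC19 was 1.48 (95% interval 1.42 to 1.55) for SEC24C and 1.41 (1.36 to 1.46) for AP3M1. Of genes of at least 1 TPM, 27.2% and 32.9% had as large a log2 fold change there. After the GC and length correction, AP3M1 stood at log2 0.31, 0.11, 0.11 and 0.49 against pUC19 with the DNMT1, DNMT3A, DNMT3B and EGFP fusions. Against the EGFP fusion itself, SEC24C was at 0.697, 0.746 and 0.764 times and AP3M1 at 0.736, 0.672 and 0.712 times its level with the DNMT1, DNMT3A and DNMT3B fusions. These genes lie on opposite sides of PLAU.

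CHCHD1, a protein of the small mitochondrial ribosome subunit, was at 74.5, 61.6, 60.1 and 79.5 TPM with the DNMT1, DNMT3A, DNMT3B and EGFP fusions and at 59.1 TPM in pUC19. The DNMT1 and EGFP fusion libraries were above the control, with ratios of 1.26 (95% interval 1.14 to 1.39) and 1.346 (1.22 to 1.49). The intervals of the other two held 1. On the TPM scale, the EGFP fusion library was the highest of the 5 for SEC24C, AP3M1 and CHCHD1, that is for 3 of the 9 neighbours of at least 1 TPM, as it was for 21.4% of all such genes. With TMM scaling, CHCHD1 was higher with the DNMT1 fusion (log2 0.46 against pUC19) than with the EGFP fusion (0.42).

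VCL encodes vinculin, which links integrin adhesions to actin. It was at 65.1, 57.4, 59.7 and 59.9 TPM with the DNMT1, DNMT3A, DNMT3B and EGFP fusions and at 74.2 TPM in pUC19. All 4 fusion libraries lay below the control, with ratios from 0.773 (95% interval 0.743 to 0.803, DNMT3A) to 0.877 (0.844 to 0.910, DNMT1). The DNMT1 value moved from -0.19 to -0.06 on the log2 scale with TMM scaling, in which that library's ratios to pUC19 shift by 0.13 for every gene. In the edgeR test the log2 fold change of the 4 fusions was -0.24 (SE 0.19, adjusted p = 0.530).

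ADK encodes adenosine kinase, and its promoter faces that of AP3M1. It was at 61.4, 60.4, 61.7 and 60.2 TPM with the DNMT1, DNMT3A, DNMT3B and EGFP fusions, an even level, and at 66.0 TPM in pUC19. The ratios to the control were between 0.912 and 0.935. This order did not hold in every scaling: with TMM the DNMT1 value was 0.02, and after the GC and length correction the log2 values were 0.26, 0.12 and 0.14 for the DNMT1, DNMT3A and DNMT3B fusions. The ADK transcript had the lowest GC content of the neighbours, 37.3%. Across genes, the log2 read ratio to pUC19 and the GC content of the transcript had a Spearman correlation of 0.276, 0.279 and 0.245 for these 3 libraries and 0.034 for the EGFP fusion (13714 to 13895 genes, which share the libraries).

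NDST2 and FUT11 modify sugars, NDST2 as a sulfotransferase of heparan sulfate and heparin synthesis and FUT11 as a member of the fucosyltransferase family. NDST2 was at 15.1, 15.1, 21.1 and 15.9 TPM with the DNMT1, DNMT3A, DNMT3B and EGFP fusions and at 15.03 TPM in pUC19. The DNMT3B fusion library stood above the other 4, with a ratio of 1.40 (95% interval 1.28 to 1.54) to pUC19 and 1.33 (1.20 to 1.47) to the EGFP fusion, while the intervals of the other 3 fusions against pUC19 held 1. The log2 fold change with DNMT3B moved from 0.49 to 0.27 against pUC19 after the GC and length correction. Of genes of at least 1 TPM, 41.3% had as large a log2 fold change in that comparison before correction. FUT11, on the fewest reads of the 9 (196 to 332), was at 8.43, 10.3, 11.0 and 8.39 TPM and at 10.1 TPM in pUC19. Its intervals against the control held 1 with the DNMT3A (0.867 to 1.20) and DNMT3B fusions (0.928 to 1.29) and ended just below 1 with the DNMT1 (0.703 to 0.997) and EGFP fusions (0.695 to 0.998).

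**Figure D2:**
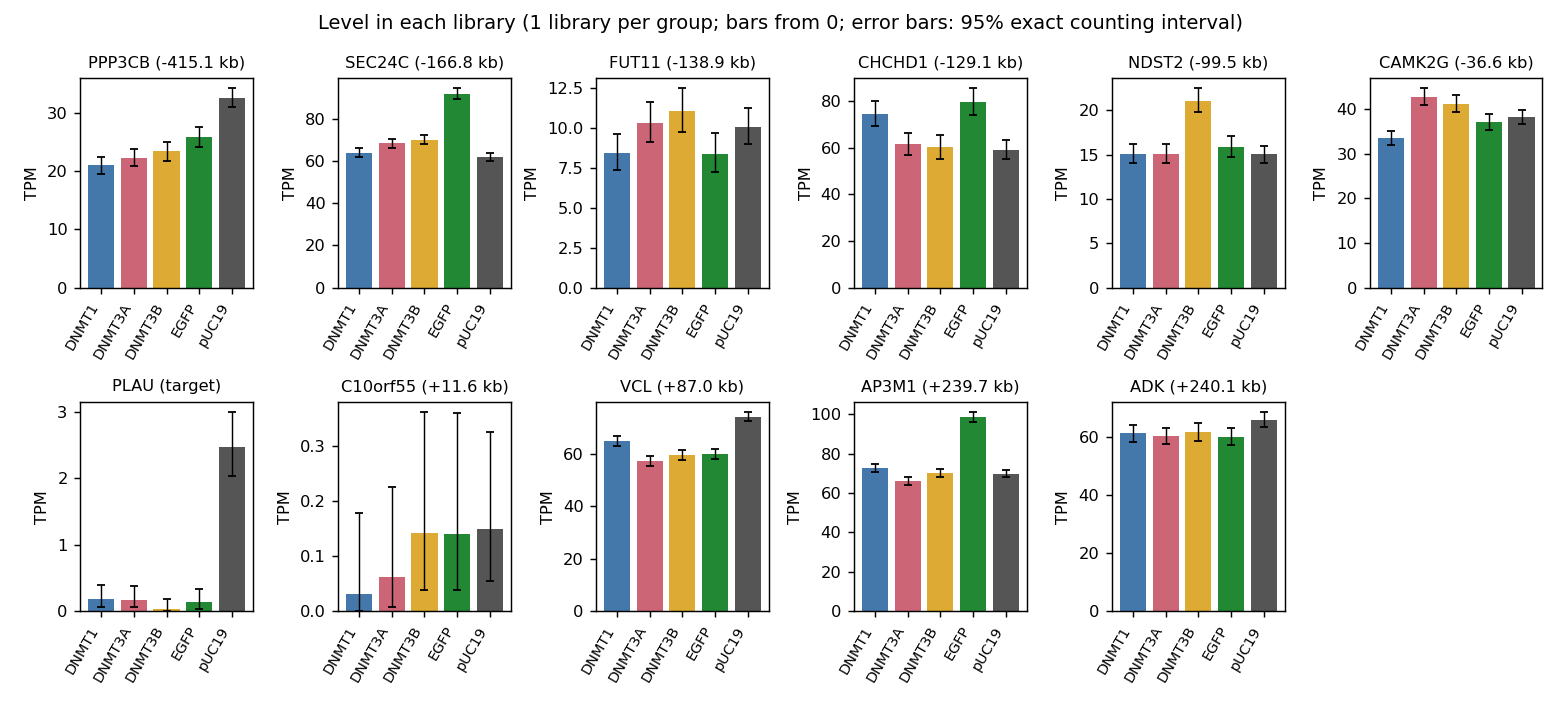
TPM of PLAU and the 10 neighbours (panels, y axes from 0) in the 5 libraries, with 95% exact counting intervals. PLAU stands at 2.48 TPM in pUC19 and at most 0.181 TPM in the fusion libraries, while PPP3CB and VCL are modestly below the control in all 4 and SEC24C and AP3M1 are highest with the EGFP fusion.

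The pUC19 library lay above all 4 fusion libraries for ADK, PPP3CB and VCL and below all 4 for CHCHD1, NDST2 and SEC24C, or outside their range for 6 of the 9 neighbours of at least 1 TPM, on the TPM scale. After the GC and length correction, ADK, NDST2 and SEC24C did not keep that order in every library. Of the 14776 genes at that level, 32.6% had the control above and 23.3% below all fusions, 55.9% in all. Against the spread among the 4 fusion libraries, which are different constructs and not replicates (common coefficient of variation 0.205), 9 neighbours could be tested, since C10orf55 had too few reads. None passed edgeR's quasi-likelihood test at an adjusted p-value under 0.05, as 0.737% of all genes did. At an unadjusted p-value under 0.05, none of the 9 passed, against 18.0% of all genes. DESeq2 gave 0 after adjustment (6.63% of genes) and 1, PPP3CB, before it (15.1% of genes). PLAU passed, with a log2 fold change of -4.14 (SE 0.58, adjusted p = 0.0255).

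The next comparison set the fusions with DNMT3A and DNMT3B, which methylate de novo, against those with DNMT1 and EGFP. No neighbour passed the edgeR test, which 11.0% of all genes passed. At an unadjusted p-value under 0.05 there were 2, CHCHD1 and AP3M1, against 28.8% of all genes, and DESeq2 gave 0 after and 2 before adjustment, against 16.5% and 19.9% of genes. Both were lower with DNMT3A and DNMT3B, by log2 fold changes of -0.39 for CHCHD1 (SE 0.14, adjusted p = 0.104) and -0.37 for AP3M1 (SE 0.13, adjusted p = 0.104). Without the DNMT1 fusion library, the log2 fold changes were -0.52 for AP3M1 and -0.39 for SEC24C. That fit rested on the EGFP fusion alone as the other arm, the library in which both genes were highest.

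The levels of CAMK2G and FUT11 were higher in both de novo methyltransferase libraries than in both others, and those of AP3M1, CHCHD1 and VCL lower in both, on the TPM scale (VCL was not below the EGFP fusion after the GC and length correction). These were 2 and 3 of the 9 neighbours of at least 1 TPM, against 33.8% and 23.6% of all such genes. In the direct comparisons with the EGFP fusion none of the 10 neighbours was called, where 1.48%, 4.09% and 3.62% of genes were called with the DNMT1, DNMT3A and DNMT3B fusions. C10orf55, with 4 reads in the EGFP fusion library, had too few reads to be called lower there. The 27 intervals of the 9 neighbours in these comparisons lay between 0.647 and 1.59.

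A wider window held 26 genes besides PLAU whose start lies within 1 Mb, the 10 neighbours included. Of these, 24 were at 1 TPM or more in the fusion or the control library. Their median log2 fold change was -0.05 with the DNMT1 fusion, -0.00 with DNMT3A, 0.06 with DNMT3B and -0.03 with EGFP. Over all genes at that level the medians were -0.14, -0.03, -0.02 and -0.00 in the same order. These 8 medians all lay between -0.14 and 0.06, and 11, 12, 14 and 11 of its 24 genes were above the control.

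Apart from PLAU, each of 2 fusion libraries had 1 call in the window. P4HA1, a subunit of the enzyme that hydroxylates prolines of collagen, starts at -814.3 kb from PLAU and had 642 reads with the DNMT3A fusion and 1672 in pUC19 (17.1 and 35.5 TPM, log2 fold change -1.05, adjusted p = 2.10e-63 in the exact binomial test). AGAP5, which has close copies on the same chromosome so that counts of unique reads are uncertain, starts at -213.0 kb and had 71 reads with the EGFP fusion and 219 in pUC19 (log2 fold change -1.10, adjusted p = 2.25e-09 in the same test). Both genes were below the control in all 4 fusion libraries. P4HA1 had log2 fold changes of -0.31, -0.78 and -0.68 with the DNMT1, DNMT3B and EGFP fusions. Those of AGAP5 were -0.69, -0.40 and -0.79 with the DNMT1, DNMT3A and DNMT3B fusions. With an assumed coefficient of variation of 0.2 between libraries, neither gene was called (adjusted p = 0.125 and 0.239 in edgeR's exact test). P4HA1 was also under 2-fold after the GC and length correction (log2 -0.88), and AGAP5 with a pseudocount of 1 TPM (log2 -0.89). The nearest genes outside the list were the antisense lncRNA ZSWIM8-AS1 at -109.7 kb and, on the other side, KAT6B, a histone acetyltransferase gene, at 915.5 kb. ZSWIM8-AS1 had 41 reads in pUC19 and between 32 and 42 in the fusion libraries. KAT6B was above the control in all 4, with log2 fold changes of 0.24, 0.55, 0.54 and 0.72, and was not called.

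By distance on chromosome 10, the 16 genes of at least 1 TPM within 0.5 Mb had median log2 fold changes between -0.00 and 0.06 in the 4 libraries, and the 8 between 0.5 and 1 Mb between -0.23 and 0.06. The 470 to 474 genes beyond 10 Mb had medians between -0.19 and 0.01. The highest median, 0.39 with the DNMT3A fusion, was that of the 15 genes between 1 and 2 Mb, 4 of which were called (11.5% of all genes of at least 1 TPM were). In the same bin 0 of 13 genes were called with the DNMT1 fusion (6.28% of all such genes), 3 of 14 with DNMT3B (10.9%) and 1 of 14 with EGFP (7.03%). Bins of under 20 genes rest on few values, and no order with distance from PLAU was read from them.

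**Figure D3:**
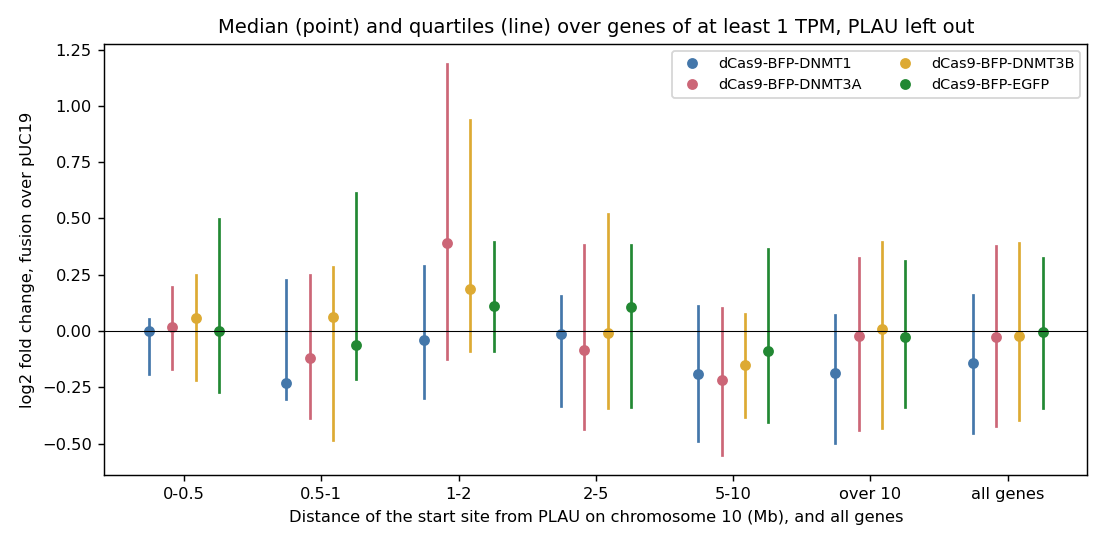
Median (points) and quartiles (lines) of the log2 fold change against pUC19 by distance of the start site from PLAU on chromosome 10 in Mb, and over all genes, for genes of at least 1 TPM and without PLAU. The medians within 0.5 Mb lie between -0.00 and 0.06, and the quartiles overlap from bin to bin in each of the 4 libraries.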

How the data were processed

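RNA was poly(A)-selected and sequenced on an Ion Proton, and the authors aligned filtered reads with tmap to RefSeq RNA of hg19 and kept unique matches. The tmap version is not given in the sources used here. The deposited counts are whole reads per gene without normalization, and the deposited TPM values, made by the authors, are those counts per gene length, scaled within each library. A deposited coverage in percent per gene is not defined by the authors and was taken to be the covered share of the transcript. Genes missing from a table were set to 0. Unique counting lowers values of genes with close copies.

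Groups came from the sample titles, and the 10 neighbours and all gene lists were chosen with earlier results of these data known. Libraries held 26.2 to 36.1 M reads (M, 1e6), so 3 reads, taken as the least a library can show, were 0.083 to 0.114 reads per M. Intervals are 95% exact (Clopper-Pearson) and cover counting error only, not the spread between libraries. PCR copies were not marked, and any among the reads would make the intervals too narrow. Pairs of libraries were compared by the exact binomial test (two-sided, conditional on each gene's reads and on the totals), Benjamini-Hochberg adjusted over genes with a read in either. The fold change is on the log2(TPM + 0.1) scale, which understates low genes. edgeR 4.0.16 (R 4.3.3; TMM, filterByExpr, quasi-likelihood F-test, adjusted p under 0.05) was run on all 5 or the 4 fusion libraries, with SE taken as the log2 fold change over the root of F. Alternatives were TMM scaling, a pseudocount of 1 TPM, a minimum of 1 TPM, edgeR's exact test with an assumed coefficient of variation of 0.2, a 1.5-fold minimum and a loess correction (span 0.3) for GC content and length (a GC value for 96.1% of genes). For the edgeR fits they were DESeq2 1.42.0, median-ratio factors, no filter, that correction and leaving out each fusion. GENCODE v44 lifted to GRCh37 gave positions. The text names the neighbours, PLAU, the methyltransferase rows, the nearest other genes on each side and up to 5 other called genes within 1 Mb. A further marker of HEK293T is not reported here. Scripts were tested on simulated counts.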

Additional observations from a re-analysis of the deposited data

Results flagged for a closer look

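For 2 neighbours, fusion libraries lay on opposite sides of pUC19 with counting intervals that did not hold a ratio of 1, and these differences between effects were not tested against replicates. CAMK2G had log2 fold changes of -0.19 with the DNMT1 fusion, 0.16 with the DNMT3A fusion and 0.11 with the DNMT3B fusion. The exact binomial test on shares of reads gave an adjusted p-value of 0.803 for the DNMT3B fusion, with 65.3 reads of CAMK2G per M reads against 64.6 in pUC19. With TMM scaling the DNMT1 value was -0.06, and the GC and length correction gave -0.14, 0.03 and -0.06. AP3M1 had a log2 fold change of 0.50 with the EGFP fusion and -0.075 with the DNMT3A fusion, which became 0.49 and 0.11 after the GC and length correction. Each rests on 1 library per group.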

How the results depend on the processing

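The number of neighbours called stayed at 0 in 6 of the 7 comparisons of library pairs under every alternative run, and was 1 (PPP3CB) for the DNMT1 fusion against pUC19 with a 1.5-fold minimum. For the 4 fusions against pUC19, the number past the edgeR threshold was 0 throughout. For the de novo fusions (DNMT3A, DNMT3B) against the other two, leaving out 1 library gave 0 to 2 neighbours, with AP3M1 and SEC24C without the DNMT1 fusion library, and the other alternatives gave 0. The number of all genes past that threshold ranged from 65 to 977 for the first fit (118 as reported) and from 18 to 3850 for the second (1694 as reported). The median over the 1 Mb window with the DNMT1 fusion moved from -0.05 to 0.076 with TMM scaling, which scales that library differently.

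Directions of some neighbours turned, all of them not called. Against pUC19 with TMM scaling, ADK with the DNMT1 fusion became 0.023. With the GC and length correction, ADK became 0.26, 0.12 and 0.14 with the DNMT1, DNMT3A and DNMT3B fusions. The same correction gave NDST2 -0.16, AP3M1 0.11 and FUT11 -0.075 with the DNMT3A fusion, and CAMK2G -0.063 and SEC24C -0.0061 with the DNMT3B fusion. Against the EGFP fusion with TMM scaling, NDST2 became 0.068 and CHCHD1 0.044 with the DNMT1 fusion and VCL 0.0099 with the DNMT3B fusion. With the correction, CAMK2G became 0.0030 and NDST2 0.050 with the DNMT1 fusion, VCL 0.015 with the DNMT3A fusion, and C10orf55 -0.11 and VCL 0.0035 with the DNMT3B fusion. In the edgeR fits the correction gave CAMK2G -0.077 and ADK 0.13 for the 4 fusions. Leaving out 1 library at a time, FUT11 ranged there from -0.11 to 0.040 (without the EGFP fusion library). In the second fit ADK ranged from -0.13 to 0.035 (without DNMT1) and NDST2 from -0.084 (without DNMT3B) to 0.38. The cause was not tested.

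No paired analysis was possible because each group has 1 library and the labels give no replicate numbers. Depth limits C10orf55 and PLAU in the fusion libraries, at 1 to 6 reads each. All other neighbours had 196 reads or more, so the limit there was the lack of replicate libraries, not depth.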
